A study of Mus musculus with 24 samples.

Results

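The 41 genes described here encode proteins that copy the genome and divide the cell, and they were chosen by name: each is on a list of DNA replication and mitosis genes, and each has a row in both deposited count tables, out of 25793 gene symbols. They were measured by RNA-seq in cerebellum (CB) and hippocampus (HC) at postnatal day 14 (P14) and P35, in wild type (WT) mice and in 16GsoT/T mice, with 3 mice in each of 8 groups and 24 libraries in all. 16GsoT/T mice are homozygous for 16Gso, a reciprocal translocation between chromosomes 5 and 8 that breaks between *Auts2* and *Galnt17*, and the WT mice carry neither translocated chromosome. The study describes male mice on a mixed C57BL/6 and C3H/He background (B6C3) with homozygotes bred from homozygous parents, whereas the sample labels name C57BL/6. No mouse was treated, and each library held the RNA of a whole dissected region.

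A cell that divides first licenses its replication origins by loading the ring of MCM helicase subunits onto DNA, then fires them, copies the genome behind the sliding clamp PCNA, and finally separates the chromosomes on a spindle whose checkpoint holds back anaphase. Most of these genes are transcribed in waves, with the replication genes under E2F factors in late G1 and the mitosis genes later through so-called CHR and CCAAT elements. In the mouse CB, granule neuron progenitors of the external granular layer divide until about the end of the second week after birth, and in HC the dentate gyrus keeps a small pool of dividing cells into adulthood. Oligodendrocyte progenitors divide in both regions.

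Reads on genes per library ranged from 22893603 to 40564789 in P14 CB, from 10572358 to 13245150 in P14 HC, from 5140843 to 7974640 in P35 CB and from 2563968 to 4127478 in P35 HC. In P14 CB between 64.8% and 68.1% of the reads fell on genes, against 37.6% to 42.4% in the other groups. Age in CB and the way these libraries were made or sequenced therefore cannot be told apart. The same holds for region at P14 and for the region by age difference. Age and sequencing run in HC, and region and library preparation or lane at P35, cannot be told apart either. Depth also differed between the ages of each region and between the regions at each age. Between genotypes the share on genes also differed in P35 CB, with 37.6% to 37.7% in WT and 42.3% to 42.4% in 16GsoT/T. Region markers followed the labels: 7 genes of mature granule neurons summed to at least 3692 CPM (read counts scaled to a common library total) in each CB library and at most 230.1 CPM in each HC library, and 7 genes of hippocampal neurons summed to at most 337.2 CPM in CB and at least 689.1 CPM in HC. Genes of the choroid plexus and ependyma varied within groups, between 16.84 and 2043 CPM over all libraries. Levels are given in CPM of the reads on genes after TMM scaling over all 24 libraries, with the mean ± SD of 3 mice.

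In the CB of WT mice, 28 of the 41 genes were lower at P35 than at P14 and 2 were higher. Of all 15784 genes tested, 29.4% were called lower and 30.2% higher in this comparison, and the median log2 fold change was -1.18 over the 41 genes and 0.00 (-0.002033) over all genes. A gene was called at an adjusted p of at most 0.05 in the quasi-likelihood test of edgeR. In bulk RNA, fewer dividing cells and less RNA of these genes per cell cannot be told apart. The lowest log2 fold changes were those of *Ccnb1*, *Cenpf*, *Mki67* and *Top2a*, while *Mcm2*, *Mcm4*, *Mcm5* and *Pcna* did not pass the test. Genes with few reads at P35 passed the filter on low counts through their P14 libraries. The heat map of the 24 libraries shows the level of every gene behind these counts.

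**Figure D1:**
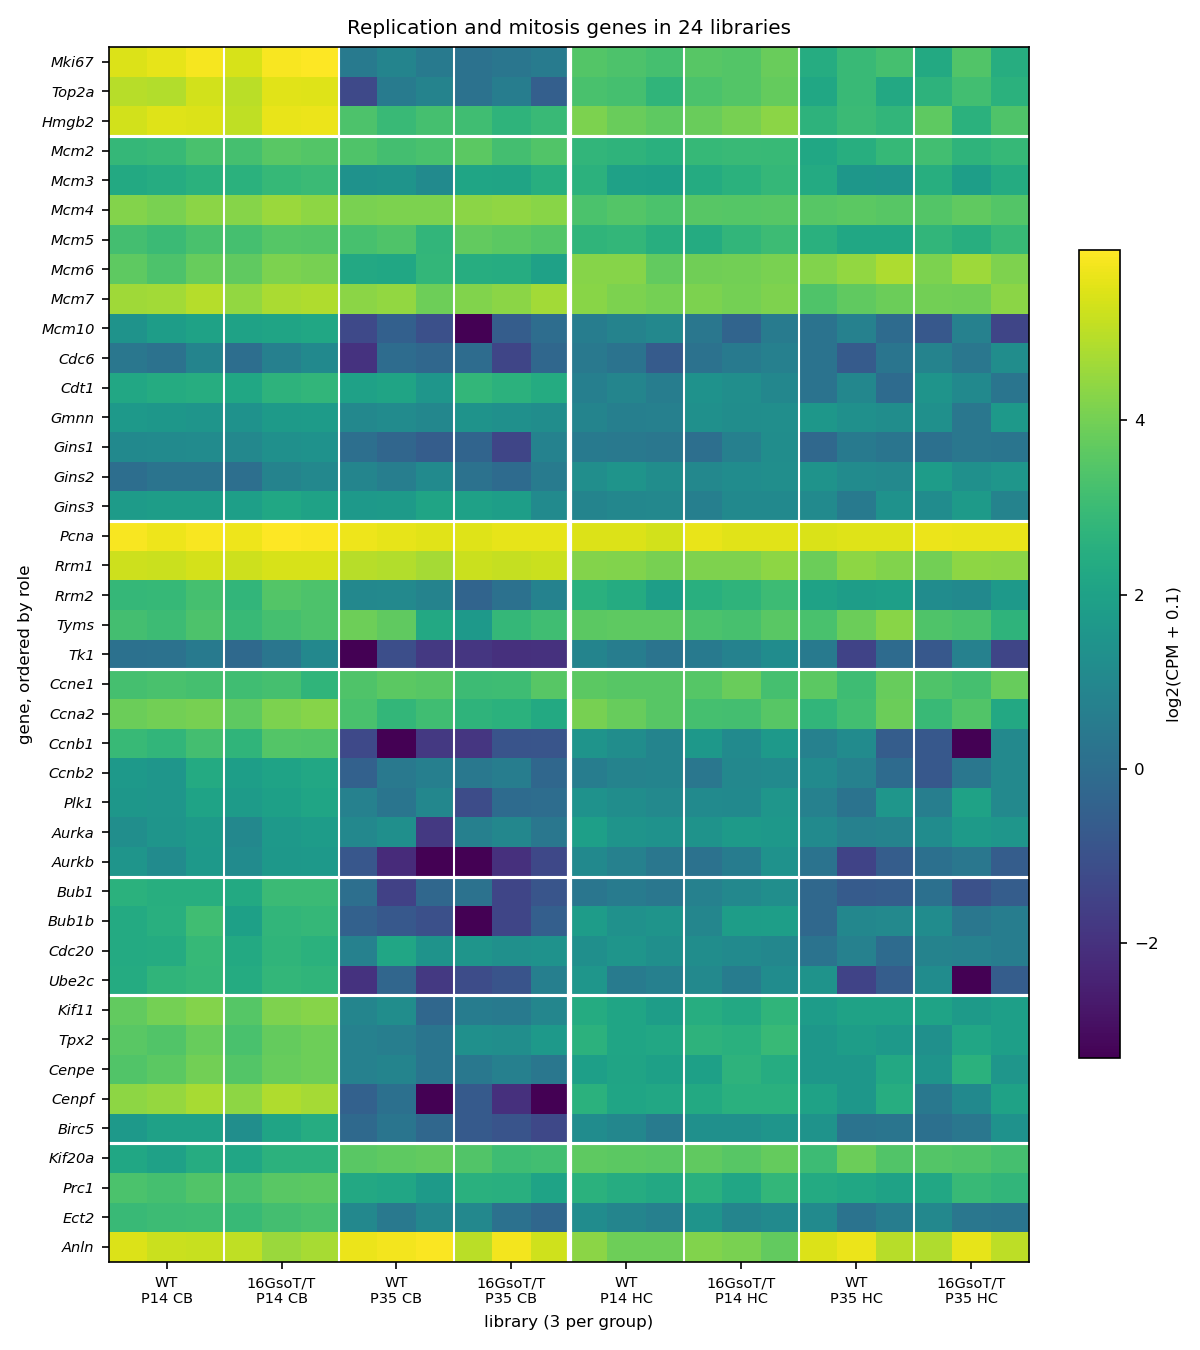
Level of each of the 41 genes (rows, ordered by role, with white lines between roles) in each of the 24 libraries (columns, 3 per group), as log2(CPM + 0.1). *Mki67*, *Top2a*, *Cenpf* and *Ccnb1* are bright in the 6 P14 CB libraries and dark in the 6 P35 CB libraries, whereas *Pcna* and *Rrm1* are bright in CB at both ages.

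*Mki67* (chr7:142881471-142908062 in NCBIM37, minus strand) encodes Ki-67, a coat of mitotic chromosomes and the usual marker of proliferating cells. In WT CB it was at 44.2, 48.81 and 56.52 CPM in the P14 libraries and at 1.269, 1.724 and 1.312 CPM in the P35 libraries. All P14 libraries lay more than an order of magnitude above all P35 libraries, and the log2 fold change was -5.07 (SE 0.22, adjusted p = 1.8e-11). *Top2a*, which encodes the topoisomerase that untangles replicated DNA, fell from 33.4 ± 5.58 to 1.12 ± 0.71 CPM (log2 fold change -4.89, SE 0.31, adjusted p = 1.6e-09). *Hmgb2*, a chromatin protein abundant in cycling cells, fell by 2.26 on the log2 scale (SE 0.18).

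Among the 13 genes of origin licensing and of the replicative helicase, 6 fell and 7 did not pass the test. *Mcm7* (chr5:138605811-138613650, minus strand), a subunit of the MCM2-7 ring and the most abundant of this group by CPM in WT P14 CB, was at 24.37, 25.14 and 29.76 CPM at P14 and at 19.99, 21.91 and 14.8 CPM at P35. The libraries of the 2 ages did not overlap, but the difference was small, with a log2 fold change of -0.46 (SE 0.15, adjusted p = 0.019). *Mcm10*, which activates the loaded helicase, fell furthest in this group (-2.85, SE 0.43, adjusted p = 3.7e-05), from 3.35 ± 0.65 to 0.44 ± 0.16 CPM. *Mcm3*, *Mcm6*, *Gmnn*, the gene of the licensing inhibitor geminin, and *Gins1* were the other genes that fell, by 1.10, 1.18, 0.56 and 1.44 on the log2 scale. The call of *Gmnn* was kept in 7 of 12 fits that left out a library and was lost in DESeq2 and in 4 of 5 other settings, namely total counts without TMM, no filter on low counts, the 6 WT libraries alone and thinned counts. The ring subunits did not move as a unit: log2 fold changes of *Mcm2*, *Mcm4* and *Mcm5* lay between -0.12 and 0.27 and did not pass the test, and neither did those of the loading factors *Cdc6* (-1.06, SE 0.52) and *Cdt1* (-0.44, SE 0.21) or of *Gins2* (0.77, SE 0.34) and *Gins3* (0.03, SE 0.22).

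The sliding clamp *Pcna* (chr2:132074898-132079050, minus strand) stood at 58.66, 52.81 and 57.56 CPM in WT P14 CB and at 53, 48.14 and 45.72 CPM in WT P35 CB. The 2 ages overlapped, and the log2 fold change of -0.19 (SE 0.08) did not pass the test (adjusted p = 0.051). The subunits of ribonucleotide reductase, the enzyme that makes deoxynucleotides, parted: *Rrm1* fell by 0.41 on the log2 scale (SE 0.09, adjusted p = 0.00072), while *Rrm2*, whose protein is made in S phase, fell by 2.06 (SE 0.27, adjusted p = 7.5e-06). *Tk1*, thymidine kinase, had 100 reads in all WT P14 CB libraries and 4 in all WT P35 CB libraries, a ratio of 5.35 with a 95% counting interval from 2.03 to 20.03. *Tyms*, thymidylate synthase, did not pass the test (0.29, SE 0.29).

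Of the 7 genes of cyclins and mitotic kinases, 5 fell. *Ccna2* (chr3:36463788-36471072, minus strand), the cyclin of S phase and G2, was at 14.52, 15.62 and 16.38 CPM at P14 and at 9.68, 6.894 and 8.433 CPM at P35. Every P35 library was below every P14 library, at a log2 fold change of -0.90 (SE 0.17, adjusted p = 0.00032). *Ccnb1*, the cyclin of mitotic entry, had 699 reads at P14 and 3 at P35 over 3 libraries each, a ratio of 49.9 with a counting interval from 17.0 to 242.5. *Aurkb*, the kinase of the chromosomal passenger complex, had 241 and 4 reads (ratio 12.9, interval 4.97 to 47.72). *Ccnb2* and *Plk1* fell by 1.67 and 1.11 on the log2 scale, whereas the G1/S cyclin *Ccne1* (0.29, SE 0.16) and *Aurka* (-0.78, SE 0.41) did not pass the test.

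All 9 genes of the spindle checkpoint, anaphase, spindle and centromere fell. *Bub1b* (chr2:118423947-118467328, plus strand), the checkpoint gene that encodes BubR1, was at 4.994, 5.633 and 8.472 CPM at P14 and at 0.6347, 0.4924 and 0.3748 CPM at P35. The ages were far apart (-3.62, SE 0.47, adjusted p = 6.8e-06), although the P35 libraries held only 10 reads of it in all. *Bub1*, *Ube2c*, which encodes an E2 enzyme of the anaphase-promoting complex, and the activator *Cdc20* fell by 3.19, 3.94 and 0.94 on the log2 scale. *Cenpf* (chr1:191464478-191511965, minus strand), which encodes a kinetochore protein of G2 and mitosis, was at 20.52, 22.01 and 26.89 CPM at P14 and at 0.6347, 0.9849 and 0 CPM at P35. Library M29 held no read of it, and the log2 fold change was -5.23 (SE 0.35, adjusted p = 3.8e-09). The spindle motor *Kif11*, the spindle assembly factor *Tpx2*, the kinetochore motor *Cenpe* and *Birc5*, which encodes survivin, fell by 3.25, 3.09, 3.06 and 1.97. The summed level of the 5 spindle and centromere genes went from 67.6 ± 10.1 to 5.87 ± 1.93 CPM.

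The 4 genes of the spindle midzone and of cytokinesis split, with *Prc1* (-1.24, SE 0.18) and *Ect2* (-2.28, SE 0.23) lower and *Anln* and *Kif20a* higher at P35. *Anln* (chr9:22135658-22193650, minus strand), which encodes the contractile ring protein anillin, was at 43.45, 36.99 and 35.58 CPM in WT P14 CB and at 51.57, 55.15 and 58.84 CPM in WT P35 CB (0.52, SE 0.16, adjusted p = 0.0096). All P35 libraries were above all P14 libraries. *Kif20a*, the gene of a midzone kinesin, rose from 4.506, 3.862 and 5.257 CPM to 11.9, 12.56 and 13.12 CPM (1.48, SE 0.17, adjusted p = 1.9e-06). Its annotated span overlaps *Cdc23* on the other strand, and the strand option of the counting is not given in the sources used here. *Cdc23*, a subunit of the anaphase-promoting complex, was at 74.8 ± 1.98 CPM in WT P14 CB and at 67.9 ± 7.01 CPM in WT P35 CB (-0.13, SE 0.08, adjusted p = 0.15).

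Since CPM counts a long transcript more often than a short one, levels of different genes were compared per kilobase of annotated exons. In WT P14 CB, *Pcna* (23.5 ± 1.30 CPM per kb), *Hmgb2* (15.9 ± 1.13), *Rrm1* (9.64 ± 0.56) and *Anln* (7.13 ± 0.77) were the highest of the 41, *Mki67* stood at 4.95 ± 0.62 CPM per kb, and *Tk1* was lowest at 0.21 ± 0.03. In WT P35 CB, *Pcna* (20.4 ± 1.55), *Anln* (10.2 ± 0.67) and *Rrm1* (7.20 ± 0.64 CPM per kb) led, and *Mki67* was at 0.14 ± 0.02. *Mcm10*, *Gins2*, *Cdc6* and *Tk1* were the 4 lowest at P14, and neighbours in this order often overlapped within their SD.

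**Figure D2:**
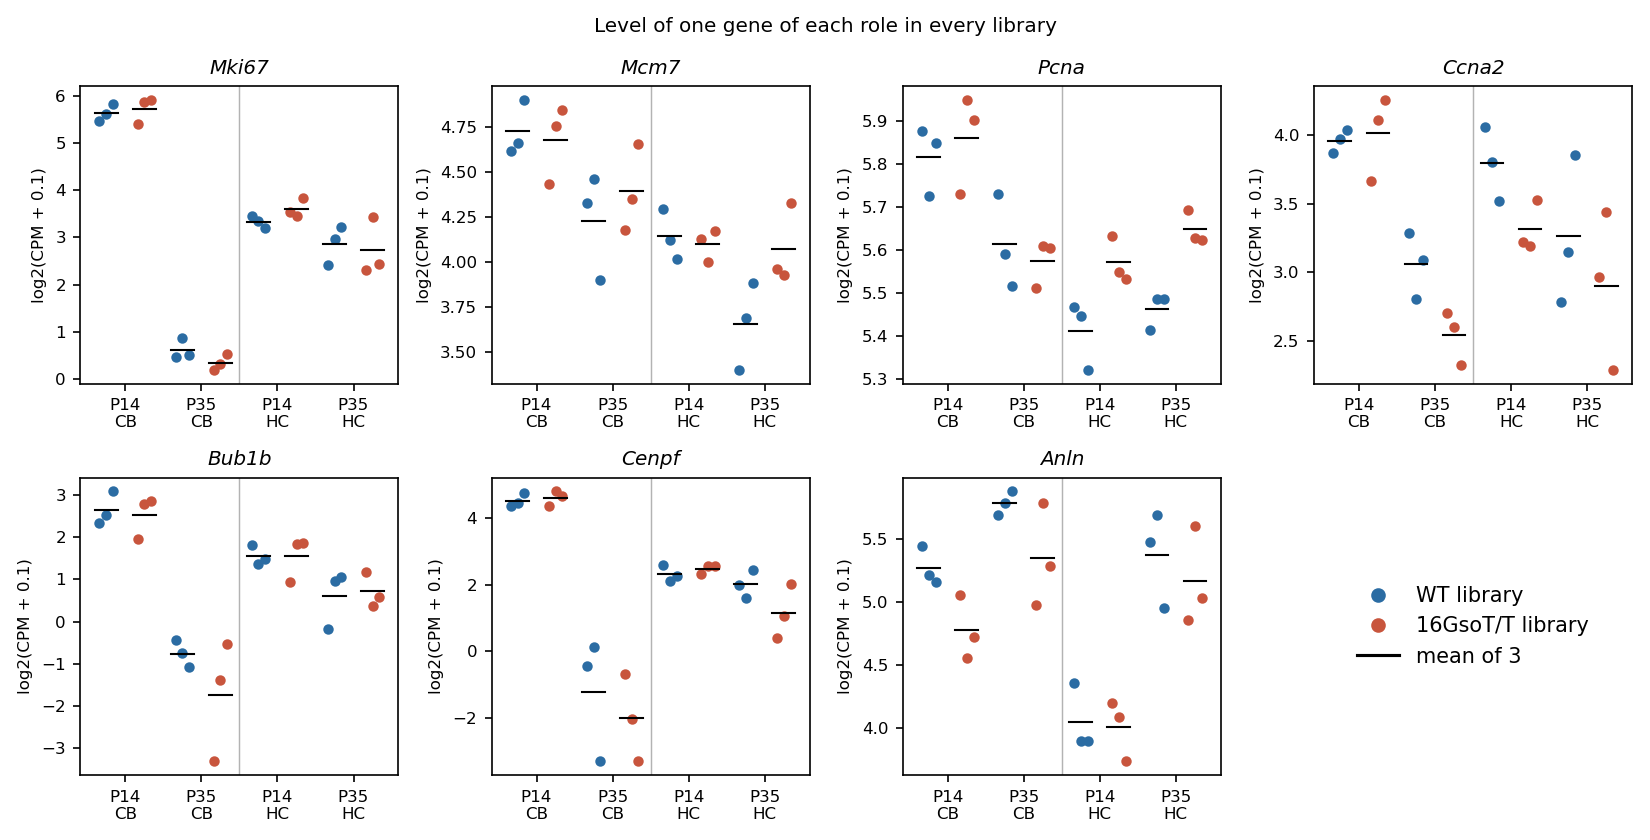
Level of *Mki67*, *Mcm7*, *Pcna*, *Ccna2*, *Bub1b*, *Cenpf* and *Anln*, the most abundant gene of each role by CPM in WT P14 CB, as log2(CPM + 0.1) in every library, with WT in blue, 16GsoT/T in red and a bar at the mean of the 3 plotted values. *Mki67*, *Bub1b* and *Cenpf* drop between P14 and P35 in CB in both genotypes, *Pcna* stays within a narrow range in all groups, and *Anln* is higher at P35 in HC.

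In the CB of 16GsoT/T mice, 27 of the 41 genes were lower at P35 than at P14 and 2 were higher, where 34.4% of all genes were called lower and 33.3% higher. *Mki67* was at 42.3, 58.24 and 60.77 CPM in 16GsoT/T P14 CB and at 1.038, 1.136 and 1.341 CPM in 16GsoT/T P35 CB (-5.52, SE 0.23, adjusted p = 8.4e-12). *Cenpf*, with 2723 reads at P14 and 4 at P35, had a ratio of 121.6 with a counting interval from 47.4 to 446.6. In both genotypes 25 genes fell and *Kif20a* and *Anln* rose. *Mcm7*, *Gmnn* and *Rrm1* were called in WT only, and *Cdc6* and *Pcna* in 16GsoT/T only, which alone does not show that the genotypes differ.

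A test of that difference, the genotype change at P35 minus that at P14, called 1 of the 41 genes in CB, where 18.6% of all genes were called. It was *Kif20a* (-0.75, SE 0.24, adjusted p = 0.038), which rose by 1.48 in WT and by 0.72 in 16GsoT/T on the log2 scale. In 16GsoT/T it was at 4.405, 6.123 and 6.06 CPM at P14 and at 10.73, 8.235 and 8.79 CPM at P35. The call was easily lost, since it was kept in 3 of 12 fits that left out a library. In those 12 fits the value ran from -0.87 to -0.65, and the adjusted p of edgeR reached 0.091. The call was also lost when counts were thinned to the smallest library. *Plk1* (-1.29, SE 0.47, adjusted p = 0.066) and *Gins2* (-1.27, SE 0.49, adjusted p = 0.079) came next by p and did not pass.

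**Figure D3:**
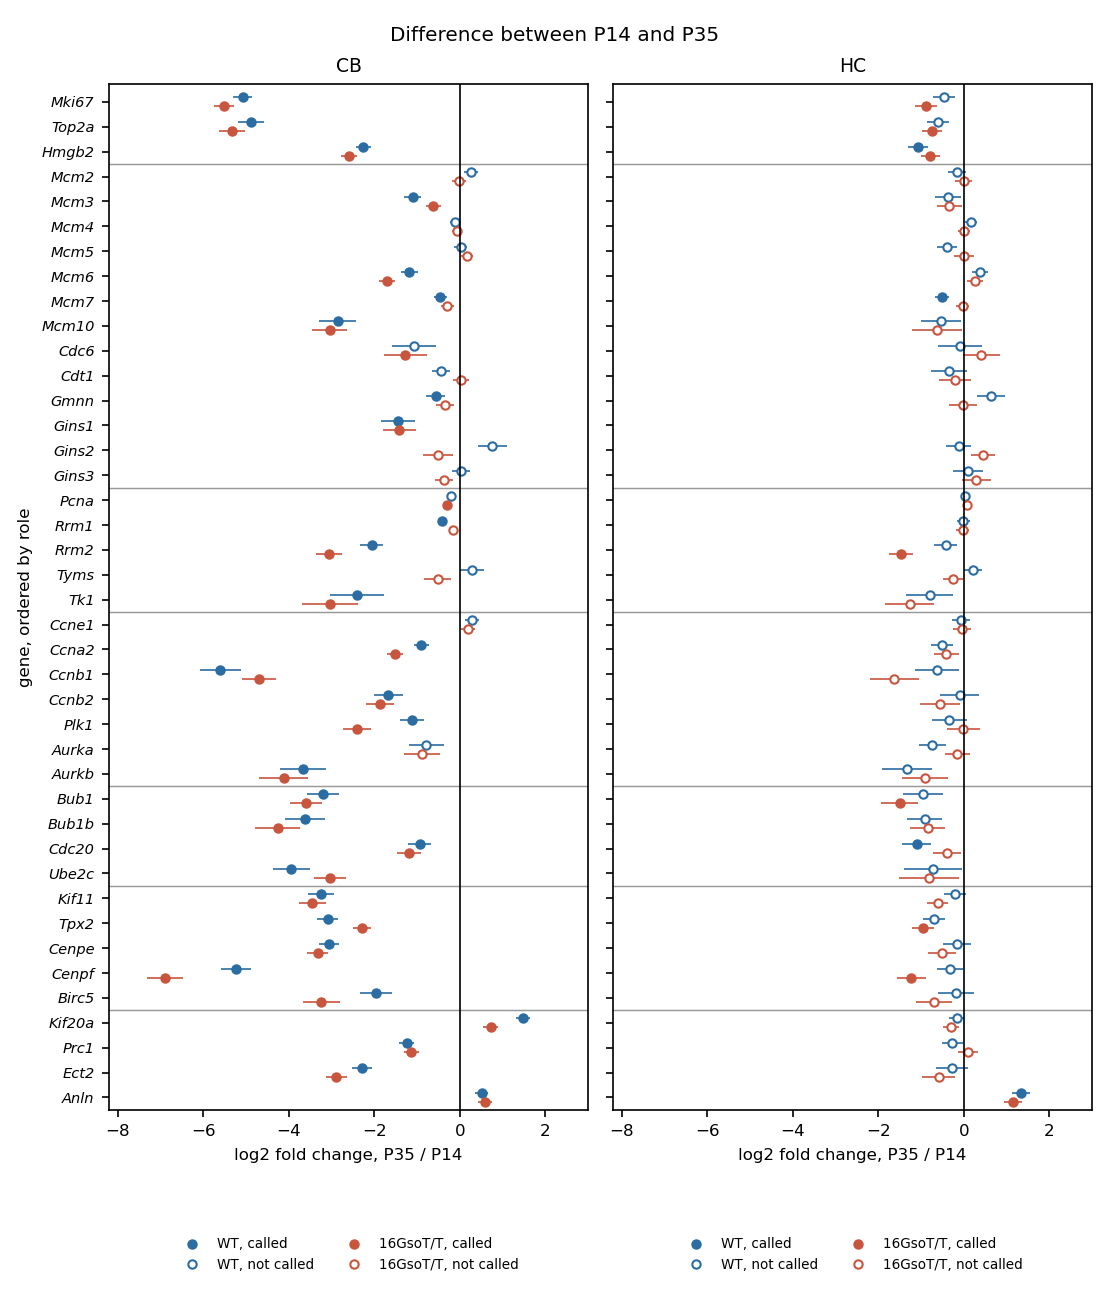
Log2 fold change of P35 against P14 for each of the 41 genes (rows, ordered by role, with grey lines between roles) in CB (left) and HC (right), in WT (blue) and 16GsoT/T (red). Bars are ± 1 SE, filled points passed an adjusted p of 0.05, and *Gins1* was not tested in HC. In CB most points lie far left of 0 in both genotypes, down to -5.60 in WT and -6.89 in 16GsoT/T, and in HC most lie near 0 and only *Anln* is called to the right.

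Other cell cycle genes were read from lists chosen with earlier results known. Of 66 further mitosis genes tested in WT CB, 47 fell and 6 rose with age (median log2 fold change -1.15), and of 43 further replication genes, 11 fell and 7 rose (median -0.13). Of 28 genes of G1 cyclins, E2F factors and pocket proteins, 13 fell and 4 rose (median -0.50), with *Ccnd2*, cyclin D2, at 78.9 ± 6.91 and 10.5 ± 1.56 CPM (-2.92, SE 0.21, adjusted p = 9.2e-09). Of 11 CDK inhibitors and growth arrest genes tested, 5 fell and 3 rose.

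Most but not all listed markers of immature cells fell between the same ages. In WT CB, 6 of 10 genes of granule neuron progenitors and Sonic hedgehog targets fell and 2 rose. *Atoh1*, which defines these progenitors, was at 1.61 ± 0.27 CPM at P14 and had no read in any P35 CB library of either genotype. *Mycn* (-1.77, SE 0.20) and *Sfrp1* (-2.01, SE 0.21) were among those that fell, but the summed level of this list was 336.1 ± 23.4 CPM at P14 and 316.6 ± 6.61 CPM at P35. All 5 genes of young granule neurons fell, from a summed 1025 ± 97.2 to 600.9 ± 9.26 CPM. Of the markers of oligodendrocyte progenitors, 7 of 9 fell, with *Pdgfra*, the receptor that defines them, going from 52.8 ± 4.75 to 23.3 ± 1.57 CPM (-1.18, SE 0.13, adjusted p = 1e-06). The part of each cell type in the fall of the 41 genes was not tested.

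The promoters are shown because 28 of the 41 genes fell with age in WT CB, and their part in that fall was not tested. The promoter sequences come from RefSeq (build GRCm38.p6) and were taken as the 250 bases before the annotated start. Of the 41 genes 33 were matched, 3 of them with more than 1 start. For those 3 only the start listed first was counted, whereas the shares over all promoters counted every start. The letters searched, on both strands, were CCAAT, the CHR core TTTGAA and 4 octamers read by E2F, which were TTTCCCGC, TTTGGCGC, TTTCGCGC and also TTTGCCGC. CCAAT was found in 26 of 33 genes (78.8%), against 33.8% of all 32851 promoters of the same length. It was found in 21 of the 23 matched genes that fell with age in WT CB (91.3%) and in 5 of the 10 others (50%). TTTGAA was found in 10 of 33 (30.3%) against 16% of all promoters, and all 10 also held CCAAT, a pair found in 5.55% of all. The other listed start of *Prc1*, a gene that fell, also held both and is not in these counts. An E2F octamer was found in 5 of 33 (15.2%) against 1.86% of all, and these 5 were among the 9 matched genes of licensing and the helicase. By the same split, TTTGAA was in 8 of the 23 genes that fell (34.8%) and 2 of the 10 others (20%). For the E2F octamers the split went the other way, with 2 of 23 (8.7%) and 3 of 10 (30%). Of each role, the gene called lower with the lowest log2 fold change in WT CB is printed, with the CCAAT and CHR letters of either strand in capitals. In *Ube2c* 1 pair of CCAAT matches on opposite strands overlaps. Each reads 5′ to 3′ on the strand of its gene and ends at the base before the start.
*Mki67* (chr7:135716380-135716629, minus strand): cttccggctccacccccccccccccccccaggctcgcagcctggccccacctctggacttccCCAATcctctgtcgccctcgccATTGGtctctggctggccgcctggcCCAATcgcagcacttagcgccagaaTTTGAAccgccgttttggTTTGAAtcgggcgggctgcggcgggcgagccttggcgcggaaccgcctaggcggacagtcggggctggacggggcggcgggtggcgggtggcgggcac
*Mcm10* (chr2:5012792-5013041, minus strand): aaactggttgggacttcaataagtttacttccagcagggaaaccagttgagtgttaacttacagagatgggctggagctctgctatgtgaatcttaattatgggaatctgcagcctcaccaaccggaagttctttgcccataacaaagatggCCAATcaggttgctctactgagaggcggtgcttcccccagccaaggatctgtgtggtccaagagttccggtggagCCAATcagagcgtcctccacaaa
*Tk1* (chr11:117826015-117826264, minus strand): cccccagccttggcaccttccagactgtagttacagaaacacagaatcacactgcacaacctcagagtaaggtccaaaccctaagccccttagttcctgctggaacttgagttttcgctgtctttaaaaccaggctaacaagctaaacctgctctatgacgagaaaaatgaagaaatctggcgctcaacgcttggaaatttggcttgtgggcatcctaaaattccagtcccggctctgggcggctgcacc
*Ccnb1* (chr13:100786487-100786736, minus strand): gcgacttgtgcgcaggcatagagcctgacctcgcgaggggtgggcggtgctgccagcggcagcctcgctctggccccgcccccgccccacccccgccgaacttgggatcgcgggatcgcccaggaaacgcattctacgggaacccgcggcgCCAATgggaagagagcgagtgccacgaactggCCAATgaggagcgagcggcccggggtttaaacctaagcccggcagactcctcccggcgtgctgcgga
*Ube2c* (chr2:164769679-164769928, plus strand): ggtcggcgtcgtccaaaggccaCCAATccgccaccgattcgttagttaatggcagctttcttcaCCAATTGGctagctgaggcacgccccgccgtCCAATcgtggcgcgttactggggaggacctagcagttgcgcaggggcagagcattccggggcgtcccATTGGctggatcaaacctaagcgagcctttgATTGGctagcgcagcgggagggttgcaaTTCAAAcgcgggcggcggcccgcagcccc
*Cenpf* (chr1:189688087-189688336, minus strand): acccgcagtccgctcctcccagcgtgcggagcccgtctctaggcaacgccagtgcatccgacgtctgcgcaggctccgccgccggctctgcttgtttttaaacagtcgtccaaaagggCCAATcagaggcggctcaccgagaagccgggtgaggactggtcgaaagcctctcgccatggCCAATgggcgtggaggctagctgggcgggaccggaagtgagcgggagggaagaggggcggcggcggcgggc
*Ect2* (chr3:27153879-27154128, minus strand): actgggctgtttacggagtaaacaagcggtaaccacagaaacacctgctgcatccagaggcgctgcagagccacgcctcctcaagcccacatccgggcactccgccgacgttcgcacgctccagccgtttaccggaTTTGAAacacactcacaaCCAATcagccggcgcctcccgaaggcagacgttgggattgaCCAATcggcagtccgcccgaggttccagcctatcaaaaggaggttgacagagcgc
Of these 7 promoters, those of *Mki67*, *Ube2c* and *Ect2* held both elements, those of *Mcm10*, *Ccnb1* and *Cenpf* held CCAAT alone, and that of *Tk1* held none of the letters searched. A match or its absence describes these letters in this window only.

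In WT HC, 3 of the 40 genes tested were lower at P35 and 1 was higher, where 12.4% of all genes were called lower and 13.1% higher. *Hmgb2* fell from 14.63 ± 2.504 to 7.004 ± 0.8826 CPM (-1.08, SE 0.24, adjusted p = 0.0043), and *Mcm7* (-0.50, SE 0.16, adjusted p = 0.030) and *Cdc20* (-1.10, SE 0.34, adjusted p = 0.028) were the others. *Cdc20* had 82 reads in WT P14 HC and 13 in WT P35 HC, and passed the filter through P14 libraries. It could be tested in 6 of 12 fits that left out a library and was called in 4. Neither DESeq2 nor the fit of the 6 WT libraries called it. *Mki67* was at 10.9, 10.06 and 9.076 CPM in WT P14 HC and at 5.226, 7.717 and 9.292 CPM in WT P35 HC. Library W483 lay within the P14 range, and the difference did not pass the test (-0.46, SE 0.25, adjusted p = 0.20). *Pcna* was at 42.54 ± 2.303 and 44.02 ± 1.241 CPM and *Cenpf* at 4.97 ± 0.89 and 4.07 ± 1.22 CPM. With N4, N5 or N10 left out 2 genes were called in WT HC, and with N10 as the only WT P35 HC library, as W481 and W483 carry another kind of label, 1 was called.

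In 16GsoT/T HC, 7 genes were lower at P35 and 1 was higher, where 8.84% of all genes were called lower and 8.39% higher. *Mki67* was at 11.45, 10.87 and 14.2 CPM at P14 and at 4.824, 10.75 and 5.343 CPM at P35 (-0.89, SE 0.26, adjusted p = 0.028). Library B11, at 10.75 CPM, nearly reached the P14 libraries. The others that fell were *Top2a* (-0.74), *Hmgb2* (-0.78), *Rrm2* (-1.47), *Bub1* (-1.50), *Tpx2* (-0.96) and *Cenpf* (-1.23). *Bub1* had 76 reads in 16GsoT/T P14 HC and 7 in 16GsoT/T P35 HC, and passed the filter through P14 libraries. It could be tested in 6 of 12 fits that left out a library and was called in 4. Neither DESeq2 nor the fit of the 6 16GsoT/T libraries called it. *Rrm2* was called in each fit that left out a library, but the count of called genes dropped to 4 without A14, B10 or B12 and to 2 without A18, and thinning to the smallest library also left 2. The test of the difference between the genotypes in this age change called 0 of 40 genes in edgeR, where 0.00666% of all genes were called. DESeq2 also called 0, where it called 94 of all 15000 genes. In edgeR 2 genes had an unadjusted p under 0.05.

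*Anln* rose with age in HC in both genotypes. It was at 20.37, 14.78 and 14.83 CPM in WT P14 HC and at 44.42, 51.63 and 30.97 CPM in WT P35 HC (1.33, SE 0.21, adjusted p = 0.00051). In 16GsoT/T HC it went from 18.24, 16.96 and 13.23 to 28.95, 48.56 and 32.62 CPM (1.15, SE 0.21, adjusted p = 0.0024). Every P35 library was above every P14 library in both genotypes. Of 6 oligodendrocyte genes, 4 rose with age in WT HC and none fell, from a summed 4198 ± 1092 to 8523 ± 1636 CPM, and in 16GsoT/T HC 1 rose, from 6227 ± 1645 to 8015 ± 1521 CPM. *Mog*, a myelin gene, rose in both (1.30, SE 0.26, and 0.93, SE 0.26). In CB, where *Anln* also rose, the same list went the other way in WT, with 0 of the 6 called higher, 3 called lower and a summed 10130 ± 749.4 CPM at P14 against 8099 ± 153.5 CPM at P35, and in 16GsoT/T CB none of the 6 was called. The part of oligodendrocytes in the level of *Anln* was not tested.

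Of 8 genes of dentate neurogenic cells, 7 fell in WT HC and 7 in 16GsoT/T HC. *Dcx*, the microtubule protein of young neurons, was at 112.1 ± 14.6 CPM in WT P14 HC and 33.6 ± 3.97 CPM in WT P35 HC (-1.76, SE 0.15, adjusted p = 5.1e-06). The list did not mark HC alone. In WT CB 7 of the 8 genes also fell, at a median log2 fold change of -3.46 against -1.24 in WT HC. Its summed level at P14 was 1086 ± 86.05 CPM in WT CB and 393.2 ± 64.17 CPM in WT HC. Of 9 genes of oligodendrocyte progenitors, 8 fell in each genotype of HC, from a summed 728.5 ± 42.0 to 442.2 ± 80.5 CPM in WT. Of 53 further mitosis genes tested in WT HC, 6 fell and 3 rose, and of 39 further replication genes, 4 fell and 4 rose.

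Between the regions of WT mice, 30 of the 41 genes were higher in CB than in HC at P14 and 4 were lower, where 38.4% of all genes were called higher and 37.6% lower. The 4 that were lower in CB were *Mcm6* (-0.49), *Gins2* (-1.23), *Tyms* (-0.45) and *Kif20a* (-1.44). *Mki67* was at 49.8 ± 6.23 CPM in CB and 10.01 ± 0.9116 CPM in HC (2.31, SE 0.16, adjusted p = 1e-08). At P35, 28 genes were tested, of which 7 were higher in CB and 8 were lower, where 29% of all genes were called higher and 25.6% lower, and 13 had too few reads to be tested.

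*Mki67* was at 1.44 ± 0.25 CPM in CB and 7.41 ± 2.05 CPM in HC at P35 (-2.33, SE 0.36, adjusted p = 2.7e-05), and *Top2a*, *Kif11*, *Tpx2*, *Cenpe*, *Cenpf*, *Rrm2* and *Mcm6* were also lower in CB, by 2.33, 1.20, 1.15, 1.22, 2.72, 0.98 and 2.09 on the log2 scale. All of these but *Mcm6* had been higher in CB at P14. *Mcm2*, *Mcm4*, *Mcm5*, *Mcm7*, *Cdt1*, *Rrm1* and *Cdc20* were higher in CB, between 0.53 and 1.51 on the log2 scale. With counts thinned to the smallest library, 19 genes could be tested at P35, and 5 were higher in CB and 3 lower.

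**Figure D4:**
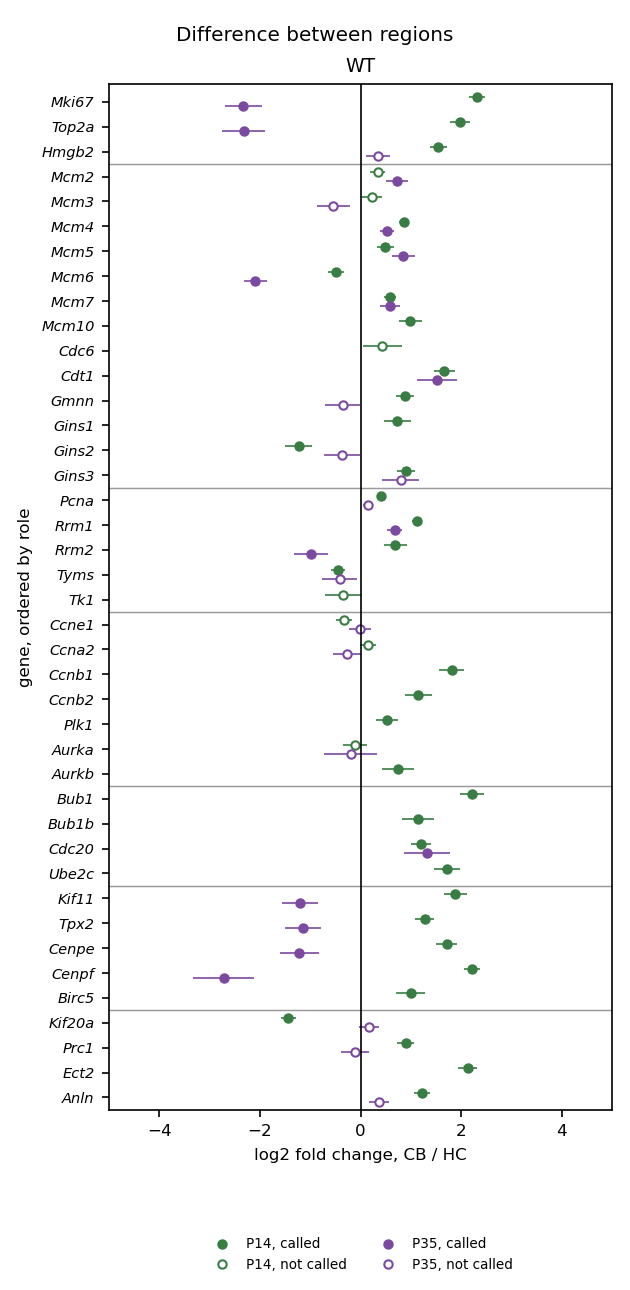
Log2 fold change of CB against HC in WT mice for each of the 41 genes (rows, ordered by role), at P14 (green) and P35 (purple), with bars of ± 1 SE and filled points at an adjusted p of at most 0.05. *Mki67*, *Top2a*, *Kif11*, *Tpx2*, *Cenpe* and *Cenpf* are right of 0 at P14 and left of 0 at P35. The 13 genes without a purple point were not tested at P35.

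The difference between the regions in their age change was tested over the 12 WT libraries, a comparison added after seeing the data. The log2 fold change with age was lower in CB than in HC for 21 of the 41 genes, and *Kif20a* alone went the other way (1.60, SE 0.25), where 25.9% of all 15573 genes were called lower and 22.9% higher. The 21 held all 3 genes of chromosome structure, all 5 of the spindle and centromere, 3 of 4 of the checkpoint and anaphase, 3 of 4 of the midzone and cytokinesis (*Prc1*, *Ect2* and *Anln*), 3 of 13 of licensing and the helicase, 2 of 5 of the clamp and nucleotide supply, and 2 of 7 of the cyclins and kinases. *Anln*, which rose in both regions, rose by less in CB (-0.87 on the log2 scale). *Mki67* differed by -4.66 (SE 0.31, adjusted p = 7.6e-09) and *Cenpf* by -4.96 (SE 0.53, adjusted p = 1.9e-06). *Mcm7* differed by 0.00 (-0.001924, SE 0.23) and *Pcna* by -0.27 (SE 0.12, adjusted p = 0.063).

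In P14 CB, 0 of 41 genes were called between 16GsoT/T and WT by edgeR, where 0.506% of all 15993 genes were called, and 4 had an unadjusted p under 0.05. DESeq2 called 1, *Anln*, where it called 241 of all 15988 genes. The 4 with an unadjusted p under 0.05 in edgeR were *Anln* (-0.49, SE 0.13, adjusted p = 0.21), *Mcm3* (0.41, SE 0.14), *Mcm2* (0.41, SE 0.14) and *Mcm6* (0.36, SE 0.14). *Anln* stood at 33.24, 23.42 and 26.38 CPM in 16GsoT/T against 43.45, 36.99 and 35.58 CPM in WT. All 16GsoT/T libraries were below all WT libraries. The median log2 fold change over the 41 was 0.12, with 35 above 0 and 6 below, and over all genes it was 0.00 (0.002232). The shares of all genes above 0, or with an unadjusted p under 0.05, were not counted in this or the other comparisons. Library 4 of 16GsoT/T was the lowest of its group for *Mki67*, *Cenpf*, *Ccna2* and *Bub1b*. With 1 library left out the median over the 41 ran from 0.04, without WT library 1, to 0.26, without library 4 of 16GsoT/T. Leaving out library 4 also left *Anln* called lower.

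In P14 HC, 0 of 41 genes were called by edgeR, where it called 0.814% of all genes, and 4 had an unadjusted p under 0.05. DESeq2 also called 0, where it called 399 of all 15223 genes. The descriptions in the sample labels give the P14 HC libraries of WT and of 16GsoT/T different codes of the form used for Illumina lanes, so that an effect of the lane and one of the genotype cannot be told apart in it. *Ccna2* had the lowest p, with 9.236, 9.022 and 11.45 CPM in 16GsoT/T and 16.58, 13.89 and 11.41 CPM in WT (-0.50, SE 0.16, adjusted p = 0.16). The groups touched, at 11.45 and 11.41 CPM. *Ccna2* overlaps *Exosc9*, an exosome subunit on the other strand, which was lower in 16GsoT/T in P14 CB (-0.68, SE 0.10, adjusted p = 0.022) and P35 CB (-0.35, SE 0.13, adjusted p = 0.047) and stood at 19.5 ± 1.37 against 30.0 ± 5.68 CPM in P14 HC (-0.63, SE 0.14, adjusted p = 0.076). Its part in the counts of *Ccna2* was not tested. The other 3 were *Bub1* (0.66, SE 0.26), *Gmnn* (0.55, SE 0.22) and *Top2a* (0.41, SE 0.18).

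In P35 CB, 4 of the 25 genes tested (16%) were called between the genotypes, where 35.3% of all 14004 genes were called, 17.4% higher and 18% lower in 16GsoT/T. The remaining 16 genes had too few reads at P35 to be tested. *Mcm3* (chr1:20793055-20810359, minus strand) was at 4.326, 4.117 and 5.512 CPM in 16GsoT/T and 2.539, 2.708 and 2.061 CPM in WT (0.90, SE 0.26, adjusted p = 0.018). *Cdt1* (chr8:125091915-125097028, plus strand), which brings the MCM ring to origins, was at 6.921, 6.105 and 5.065 CPM against 3.808, 4.186 and 2.811 CPM (0.70, SE 0.24, adjusted p = 0.038). In both, every 16GsoT/T library was above every WT library, on 11 to 43 reads per library. *Rrm1* (chr7:109590209-109618285, plus strand) was at 37.2, 35.07 and 37.09 CPM against 31.1, 29.18 and 26.05 CPM (0.32, SE 0.10, adjusted p = 0.020). *Kif20a* was the gene called lower, at 10.73, 8.235 and 8.79 CPM against 11.9, 12.56 and 13.12 CPM (-0.46, SE 0.16, adjusted p = 0.037). For each of these 4 genes the libraries of the genotypes did not overlap, which adds little to the calls, since the genes were picked by them. Among all the listed genes, tested or not, 7 had every 16GsoT/T library above every WT library and 6 had every one below. Most of those genes were not called. How often this held over all genes was not counted.

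These calls depended on the libraries, the tool and the scaling. Leaving out C21 left 1 call (*Cdt1*) and leaving out M29 left 1 (*Tyms*). Leaving out M27 left 2 (*Mcm3* and *Rrm1*) and leaving out M28 left 2 (*Ccna2* and *Mcm3*). DESeq2 called none of the 4 genes above and called *Anln*, lower in 16GsoT/T, where it called 3750 of all 14004 genes. The balance of directions moved as well: the 3 higher and 1 lower became 2 higher and 3 lower with total counts without TMM (*Cdt1* lost, *Anln* and *Ccna2* gained), 3 higher and 3 lower without the filter on low counts (*Anln* and *Tyms* gained), and 3 higher and 0 lower in the fit of the 12 CB libraries (*Kif20a* lost). *Tpx2* (0.86, SE 0.32, adjusted p = 0.053), *Ccna2* (-0.54, SE 0.20, adjusted p = 0.057) and *Anln* (-0.40, SE 0.15, adjusted p = 0.061) lay just outside the threshold. All 10 endothelial genes and 7 of 9 mural and meningeal genes were lower in 16GsoT/T in this group, at summed levels of 112.3 to 119.6 CPM against 223.2 to 232.2 CPM for the endothelial list, and the share of reads on genes differed as given above. Their part in the values of the 4 genes was not tested. Of 36 further replication genes 3 were higher and 7 lower, and of 34 further mitosis genes 5 were higher and 7 lower.

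In P35 HC, 0 of 22 genes tested were called by DESeq2, where it called 44 of all 13342 genes. In edgeR 0 were called as well, where 0.135% of all genes were called, and 1 had an unadjusted p under 0.05. It was *Tyms* (-0.72, SE 0.29, adjusted p = 0.49). *Mki67* was at 4.824, 10.75 and 5.343 CPM in 16GsoT/T against 5.226, 7.717 and 9.292 CPM in WT, with full overlap. The remaining 19 genes had too few reads to be tested at 2563968 to 4127478 reads per library, and differences in them were not detectable at this depth.

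**Figure D5:**
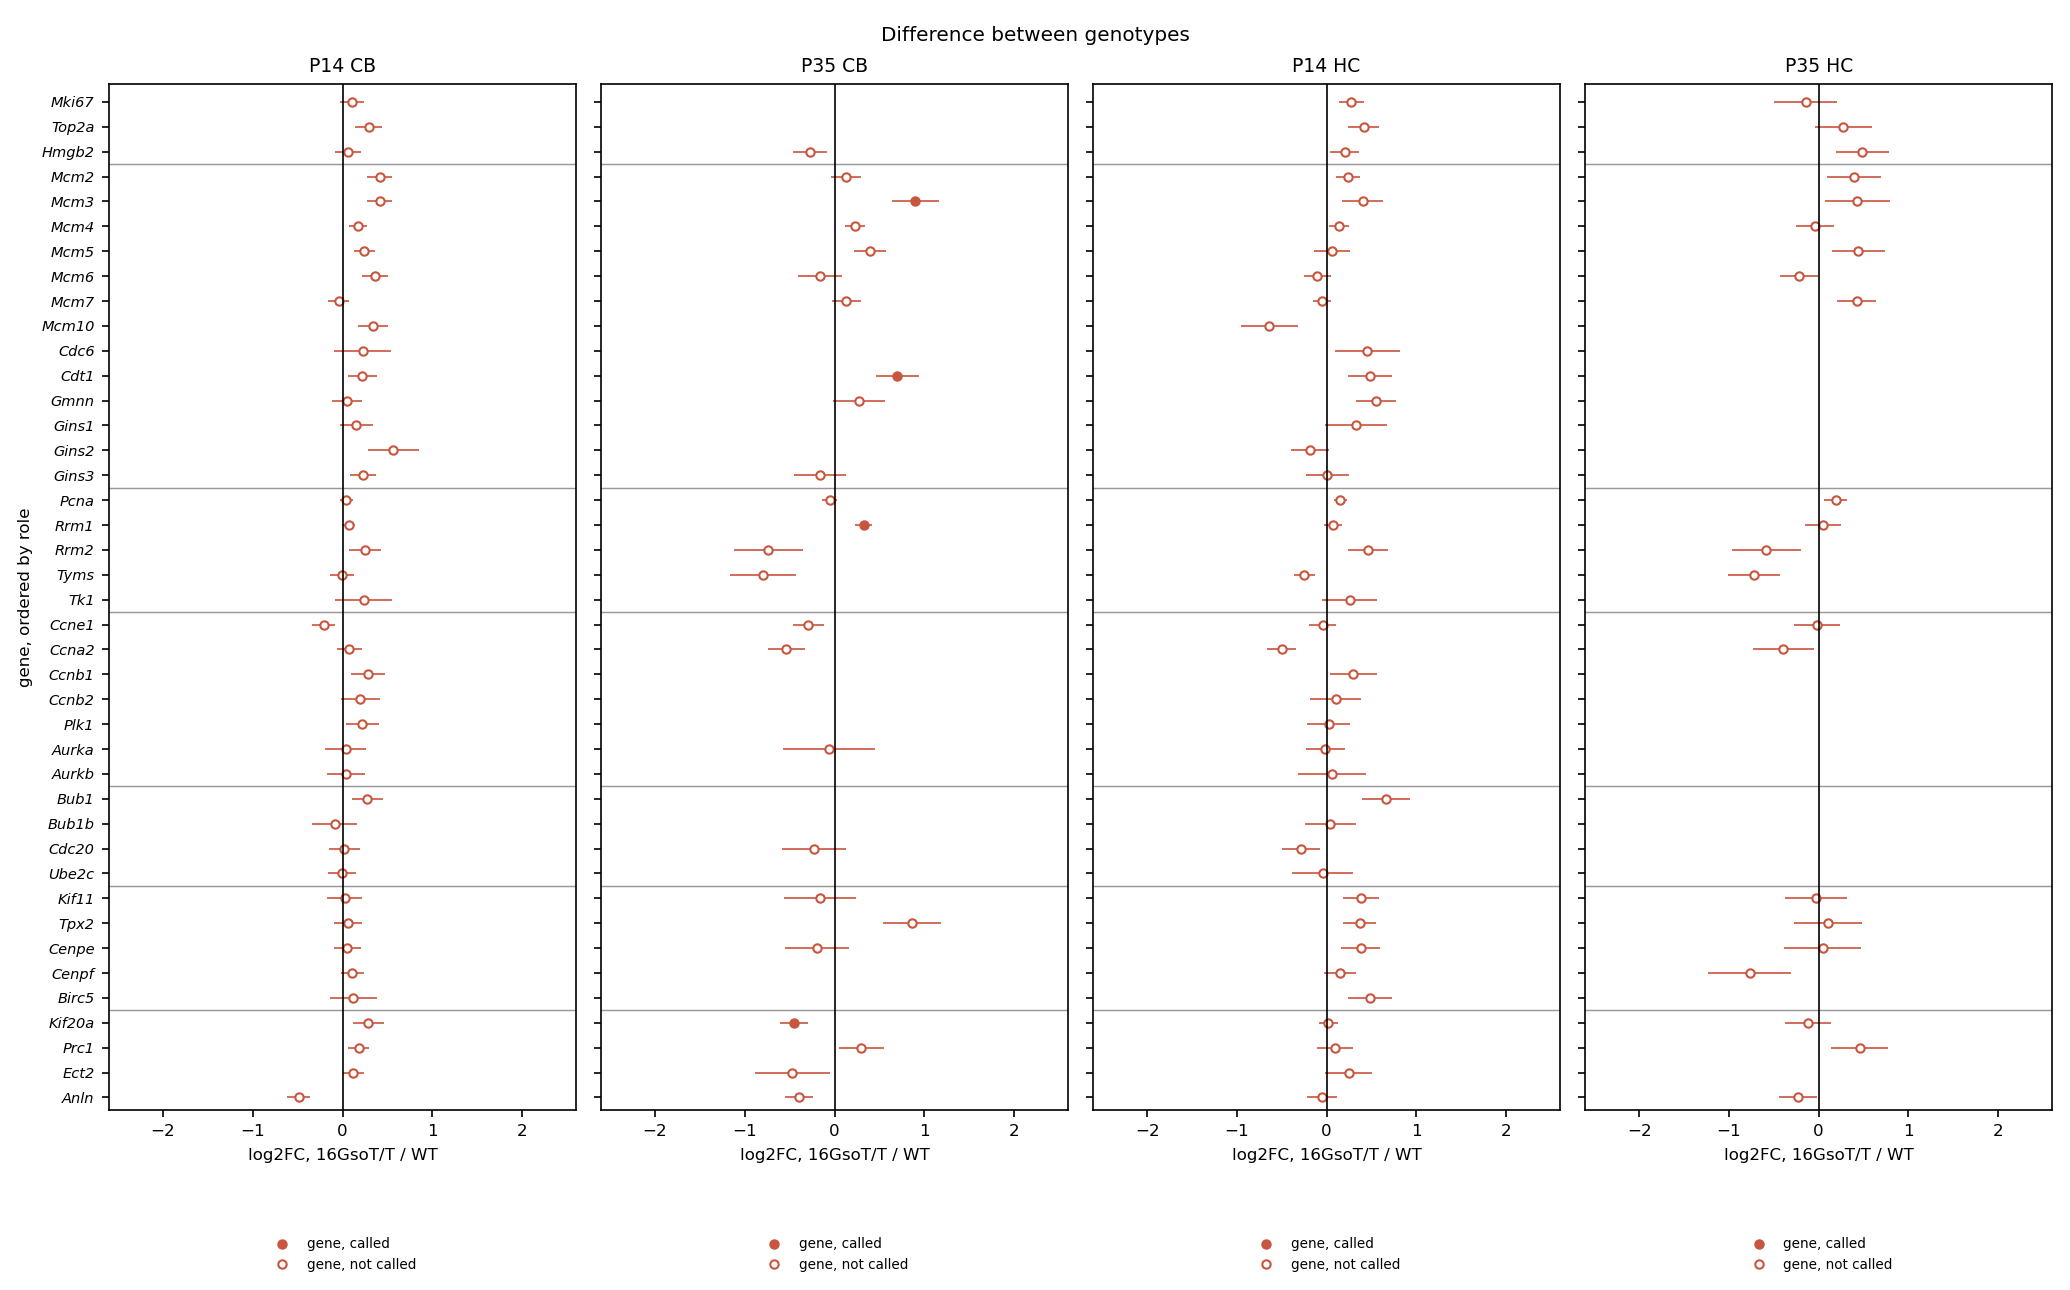
Log2 fold change of 16GsoT/T against WT for each of the 41 genes (rows, ordered by role) in P14 CB, P35 CB, P14 HC and P35 HC, with bars of ± 1 SE. Filled points passed an adjusted p of 0.05, which only *Mcm3*, *Cdt1*, *Rrm1* and *Kif20a* in P35 CB did, and a missing point marks a gene with too few reads to be tested.

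The 41 genes lie on 15 chromosomes. On chromosome 5 lie *Mcm7* and *Tyms* and on chromosome 8 *Hmgb2*, *Mcm5*, *Cdt1*, *Gins2* and *Gins3*, between 6.75 Mb (*Mcm7*) and 112.77 Mb (*Cdt1*) from the breakpoint of their chromosome in NCBIM37. *Cdt1* was the sole of these 7 called in a genotype comparison. Of the 41 genes, 9 overlap another protein-coding gene in the GENCODE vM1 annotation, namely *Mcm7*, *Cdt1*, *Gins2*, *Tyms*, *Tk1*, *Ccna2*, *Cdc20*, *Ube2c* and *Kif20a*, and the reads of such pairs may have been split or lost in the counting.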

How the data were processed

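RNA of cerebellum and hippocampus was sequenced on an Illumina HiSeq in 24 libraries, 3 mice in each of 8 groups. The authors deposited whole-number counts of reads per gene symbol, 1 table per age with both regions, not normalized. The submitters' processing notes name CASAVA 1.8.2, TopHat2 2.0.8, HTSeq 0.6.1, edgeR 3.2.4, R 3.0.0 and the build NCBIM37. The strand option and the annotation of the counting are not given in the sources used here, and reads with more than 1 position were not counted. The study and the labels name different library kits.

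The 5 summary lines of each table were left out. From the deposited counts, 13 comparisons were fitted with the quasi-likelihood test of edgeR 4.0.16 (limma 3.58.1, R 4.3.3) after TMM scaling, over genes kept by filterByExpr (minimum count 10, minimum total 15), and calls were made at 0.05 after Benjamini-Hochberg adjustment over all genes tested. Genotypes were compared within 6 libraries. Ages and the genotype by age difference were fitted over the 12 libraries of a region, regions over the 12 libraries of an age, and the region by age difference over the 12 WT libraries. Scripts were tested on simulated data. Alternatives were DESeq2 1.42.0, other scalings, no filter, other sets of libraries in the fit, thinned counts and leaving out each library. In P35 HC a term for libraries W481 and W483, which carry another kind of label, was also fitted. Intervals of read ratios are exact at 95% and cover counting error only. The p-values set a difference against the spread between mice within groups of 3. In fits of 12 libraries this spread was estimated over all groups of the fit.

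The 41 genes and the other gene lists were chosen with earlier results of these data known, and 3 of the 259 genes on other lists had no row. Values in every library are given for the most abundant gene of each role by mean CPM in WT P14 CB and for genes called between genotypes, and promoters for the gene of each role called lower with the lowest log2 fold change in WT CB. Of each other list at most 3 called genes, from among those with the largest change, are named. Further names among the 41 were chosen after their values were seen.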

Additional observations from a re-analysis of the deposited data

Results flagged for a closer look

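A test of the difference itself set 1 gene apart between the genotypes. In CB the genotype difference of *Kif20a* at P35 minus that at P14 was -0.75 on the log2 scale (SE 0.24, adjusted p = 0.038 in edgeR). It was called in 3 of 12 fits that left out a library, with values from -0.87 to -0.65.

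A test of the difference also set regions apart. For 22 of the 41 genes the age difference in WT mice differed between CB and HC, with a lower value in CB for 21 and a higher one for *Kif20a*. Of all 15573 genes tested, 25.9% were called lower and 22.9% higher. Of the 21, *Anln* rose in both regions, by less in CB.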

How the results depend on the processing

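No paired analysis was possible because the groups share no replicate numbers in the labels. The counts of called genes with age in CB lay between 27 and 31 in WT and between 28 and 30 in 16GsoT/T over the alternatives that kept all libraries. DESeq2 called 1 gene in P14 CB (0 in edgeR) and 1 in P35 CB (4 in edgeR) between the genotypes. Thinned counts left 0 calls for genotype by age in CB, 2 for age in WT HC, 2 for age in 16GsoT/T HC and 8 between regions at P35, where fewer genes could be tested. With N10 as the only WT P35 HC library, a choice made after seeing the data in which the lone library was assumed to vary like the others, 1 gene was called with age in WT HC.

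Leaving out 1 library gave 0 to 1 calls between genotypes in P14 CB and 1 to 3 in P35 CB. Both ages of HC gave 0. It gave 29 to 32 calls for age in WT CB, 27 to 31 for age in 16GsoT/T CB, 2 to 4 for age in WT HC and 2 to 8 for age in 16GsoT/T HC. Genotype by age gave 0 to 5 in CB, with 5 (*Birc5*, *Ccna2*, *Gins2*, *Kif20a* and *Rrm2*) without library 4 of 16GsoT/T P14 CB, and 0 in HC. Regions gave 29 to 35 calls at P14 and 12 to 16 at P35, and region by age 18 to 24.

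Signs turned for uncalled values only. In P35 HC the genotype difference of *Mki67* was 0.36 and that of *Ccna2* 0.17 with a term for W481 and W483. With N10 alone these were 0.38 and 0.18. Both W481 and W483 are WT, so that the term also sets 16GsoT/T against N10 and is not a separate check. *Kif11* with age in 16GsoT/T HC was 0.12 in thinned counts. With 1 library left out, some genotype differences changed sign over their range. In P14 CB *Pcna* ran from -0.006106 to 0.1028, *Mcm7* from -0.1253 to 0.0697, *Bub1b* from -0.2563 to 0.1577 and *Ccna2* from -0.05374 to 0.2271. In P35 CB *Mcm7* ran from -0.007112 to 0.2667 and *Pcna* from -0.08837 to 0.005558. In P14 HC *Bub1b* ran from -0.124 to 0.2835, *Anln* from -0.1552 to 0.1137 and *Mcm7* from -0.1137 to 0.02196, and in P35 HC *Mki67* from -0.533 to 0.07921. The cause was not tested.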
